A study of Mus musculus with 4 samples.

Results

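Among thymic invariant natural killer T (iNKT) cells profiled by single-cell RNA-seq, a group of cells was set apart by RNA of Sidt1, Fgf13, Dgkh, Gas7 and Tmem163. A cell was a member when at least 3 genes of set B (Sidt1, Fgf13, Dgkh, Gas7, Slc35f3, Tmem163 and Maml2) were detected in it, and at least 2 more of set B than of set A (Atp8a2, Cd226, St6galnac3, Setbp1, Adam19, Kcnq5 and Tex2). Eligible cells had at least 1 molecule of Nkg7, a cytotoxic granule protein gene that marks iNKT1 cells, none of Cd79a or Rag1, and at most 2 of the cycling genes Mki67, Top2a, Birc5 and Ube2c. The rule took in 5907 of 26117 eligible cells, out of 30167 cells that passed the quality filters. Members were chosen by measured values, the detection of these genes in each cell, so all levels that set them against the remaining cells are given as a description without a test. Members are compared with 6765 cells that met the mirror image of the rule, called Atp8a2 and Cd226 cells here, and with 13445 eligible cells that met neither rule, called intermediate cells and labelled other Nkg7 cells in the plots.

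The cells were sorted as CD3+ and CD1d tetramer+ thymocytes of mice aged 6 to 8 weeks. There were 2 wild-type libraries (WT 1 and WT 2) and 2 libraries of the genotype labelled ACC1 KO (ACC1 KO 1 and ACC1 KO 2), and every series of 4 values below runs in that order. ACC1 is acetyl-CoA carboxylase 1, encoded by Acaca, and makes the malonyl-CoA from which fatty acids are built. Which stretch of Acaca was deleted and by what means is not given in the sources used here. Nor do the labels say that libraries stem from separate animals, so p-values measure the spread between these libraries, which may be technical.

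iNKT cells carry a semi-invariant T cell receptor that recognises lipid antigens presented by CD1d. In the mouse thymus they mature into effector subsets named for the cytokines they make. iNKT1 cells depend on the transcription factor T-bet, encoded by Tbx21, make interferon gamma and take on receptors of natural killer (NK) cells, whereas iNKT2 cells make interleukin 4 and keep high levels of PLZF, encoded by Zbtb16.

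Libraries with the same number shared features that the genotype labels do not explain. Both libraries numbered 1 carried RNA of the Y-linked gene Ddx3y (76.9 CPM, UMIs scaled to a common total of each library's cell group, in members of WT 1 and 79.0 in those of ACC1 KO 1) and next to none of Xist, while those numbered 2 carried Xist (549.5 and 551.5 CPM). The libraries numbered 2 were also deeper, with 72.8 and 74.2 M unique molecular identifiers (UMIs) in all against 29.1 and 33.2 M. Members held medians of 4781, 6469.5, 4503 and 7122 UMIs per cell, and the Atp8a2 and Cd226 cells of the same libraries held 4671, 6264.5, 4513 and 7244. Any 2 libraries shared 10 to 27 cell barcodes, and 0 to 3 barcodes of members. Differences within a number are printed beside the shares and beside the log2 fold changes between genotypes.

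Members made up 527 of 4389 eligible cells in WT 1, or 12.01% (exact Clopper-Pearson 95% interval 11.1 to 13.0%). In WT 2 they made up 2062 of 9249, or 22.3% (21.4 to 23.2%). The 923 members among 5057 cells of ACC1 KO 1 came to 18.3% (17.2 to 19.3%), and the 2395 among 7422 of ACC1 KO 2 to 32.3% (31.2 to 33.3%). The genotypes overlapped, since WT 2 lay above ACC1 KO 1. The mean share was 17.2 ± 7.27% in WT and 25.3 ± 9.91% in ACC1 KO (SD, n = 2 libraries each), a difference of 8.11 percentage points (two-sided exact permutation test p = 0.667, where 0.33 is the smallest p that 2 against 2 libraries allow). Within number 1 the share was 6.24 points higher in ACC1 KO and within number 2 it was 9.97 points higher. Numbers differed by as much, since number 2 lay above number 1 by 10.3 points in WT and by 14.02 points in ACC1 KO. Leaving out WT 1 or ACC1 KO 2 reduced the genotype difference to 2.97 or 1.10 points, and leaving out WT 2 or ACC1 KO 1 gave 13.3 or 15.1 points.

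Depth changes how many genes are detected in a cell, so the rule was also applied to cells thinned to 2000 UMIs each. The shares were then 9.02, 14.3, 11.4 and 22.7%, which kept the order of the libraries. The mirrored Atp8a2 and Cd226 cells took 46.5, 23.8, 28.5 and 14.6% of eligible cells. Their mean share was 35.1 ± 16.0% in WT and 21.5 ± 9.83% in ACC1 KO (exact permutation p = 0.667). It was lower in ACC1 KO within each number and lower in number 2 within each genotype. The intervals per library cover counting error only.

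**Figure D1:**
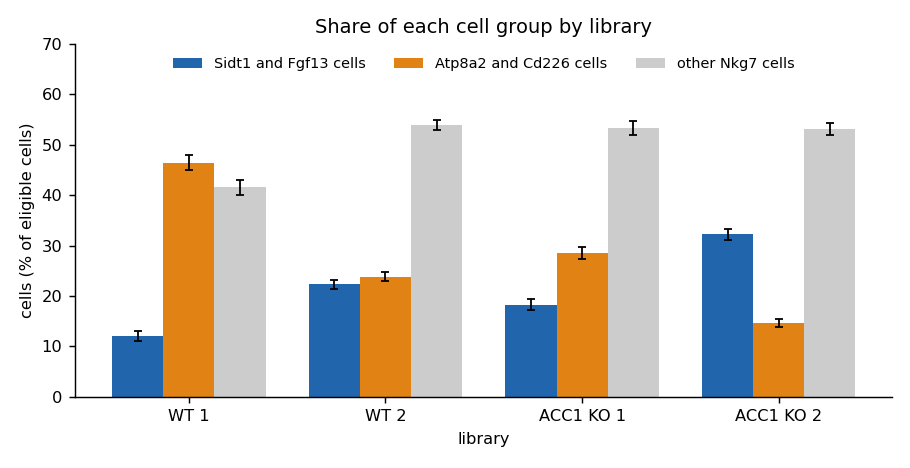
Share of eligible cells (percent, vertical axis) taken by Sidt1 and Fgf13 cells, by Atp8a2 and Cd226 cells and by intermediate cells in each of the 4 libraries, with exact 95% intervals for counting error. Sidt1 and Fgf13 cells run from 12.01% in WT 1 to 32.3% in ACC1 KO 2, and Atp8a2 and Cd226 cells run the other way from 46.5 to 14.6%.

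The group is a range cut from a score, and whether it is a separate type was not tested. Of the members, 313, 1174, 558 and 1294 stood exactly at a limit of the rule, which is 59.4, 56.9, 60.5 and 54.0% of them. They had 3 set B genes, or 2 more set B than set A genes, or both. Another 544, 1731, 849 and 1518 eligible cells missed the rule by 1 gene. Members had a mean of 4.44, 4.68, 4.33 and 4.93 of the 7 set B genes detected, and 1.86, 2.04, 1.70 and 2.20 of the 7 set A genes. All 7 set B genes were found in 16, 85, 14 and 151 members, and no set A gene in 6.83, 6.84, 10.2 and 6.05% of members. At 2000 UMIs per cell, pairs of set B genes were detected together in eligible cells 1.20, 1.16, 1.12 and 1.11 times as often as their separate frequencies predict. Pairs with 1 gene from each set came to 0.921, 1.01, 0.953 and 1.01 times, so the sets were close to independent of each other in number 2 and slightly apart in number 1.

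The 7 genes of set B encode proteins of unlike roles. Sidt1 encodes a multipass membrane protein related to the worm double-stranded RNA transporter SID-1, and lies on the minus strand at chr16:44240180-44333196 (GRCm38, GENCODE M21). It stood at 605, 576, 414 and 545 CPM in members and at 118, 199, 158 and 249.5 CPM in Atp8a2 and Cd226 cells. At least 1 Sidt1 UMI was found in 94.7, 94.2, 87.0 and 94.5% of members, and at 2000 UMIs per cell in 82.4, 83.8, 75.8 and 80.1%. Of the B-lineage cells in the same libraries, numbering 350, 12, 106 and 38, 6.6, 16.7, 11.3 and 5.3% held a Sidt1 UMI. Whether these UMIs were free RNA or RNA of the B-lineage cells was not tested. The 12 such cells of WT 2 are too few for its percentages to be read closely. ACC1 KO 1 was the lowest library for Sidt1 in members.

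Fgf13 encodes an intracellular member of the fibroblast growth factor family that binds voltage-gated sodium channels. It lies at chrX:59062145-59568071 on the minus strand. Its level was 455, 438, 353 and 424 CPM in members against 103, 198, 114 and 210 CPM in Atp8a2 and Cd226 cells. Of members, 82.5, 84.5, 74.3 and 85.1% held a UMI. Fgf13 is X-linked, and members of the libraries with Xist and of those with Ddx3y held overlapping levels of it.

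Dgkh encodes diacylglycerol kinase eta, which converts the second messenger diacylglycerol to phosphatidic acid (chr14:78558750-78732776, minus strand). It was at 165, 146, 185 and 173 CPM in members and at 18.5, 19.3, 32.4 and 38.6 CPM in Atp8a2 and Cd226 cells. Gas7, a growth-arrest-specific gene whose product binds actin (chr11:67455437-67688990, plus strand), was at 82.5, 80.5, 66.2 and 74.9 CPM against 6.47, 9.61, 4.88 and 8.93 CPM. Both genes thus stayed near the same level in every library of members, and Gas7 was below 10 CPM in every library of the mirrored cells. A Gas7 UMI was seen in 29.8, 31.0, 23.8 and 34.0% of members, and in 2.0, 0, 0.9 and 2.6% of B-lineage cells.

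Tmem163 encodes a zinc-binding membrane protein (chr1:127486546-127679548, minus strand). It was at 241, 231, 229 and 234 CPM in members and at 66.9, 72.5, 78.4 and 104 CPM in the mirrored cells. Slc35f3, a solute carrier gene, was at 107, 139, 111 and 168 CPM in members against 49.0, 59.3, 38.9 and 56.0 CPM. Maml2, a coactivator of Notch receptors, was at 446, 448, 429 and 505 CPM against 280, 348, 262 and 373 CPM, the smallest relative gap of the 7 genes. Tmem163 and Maml2 were also detected in 43.7 to 60.5% and 44.3 to 66.7% of B-lineage cells. The sum of Sidt1, Fgf13, Dgkh, Gas7 and Tmem163 was 1549, 1471, 1248 and 1451 CPM in members and 313, 499, 388 and 611 CPM in the mirrored cells, a gap that the rule itself made. The markers that name the group were thus present in members of every library, and nothing is read from their excess. Set A RNA was not absent from members: its 7 genes summed to 944, 866, 754 and 879 CPM, against 2996, 2730.2, 2499 and 2346 CPM in the mirrored cells.

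The rule genes are long. Set B genes span 93.0 to 506 kb with a median of 193 kb, and set A genes have a median of 359 kb, against 28.6 kb over the 5887 annotated genes at 20 CPM or more. Whether reads in introns were counted is not given in the sources used here.

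**Figure D2:**
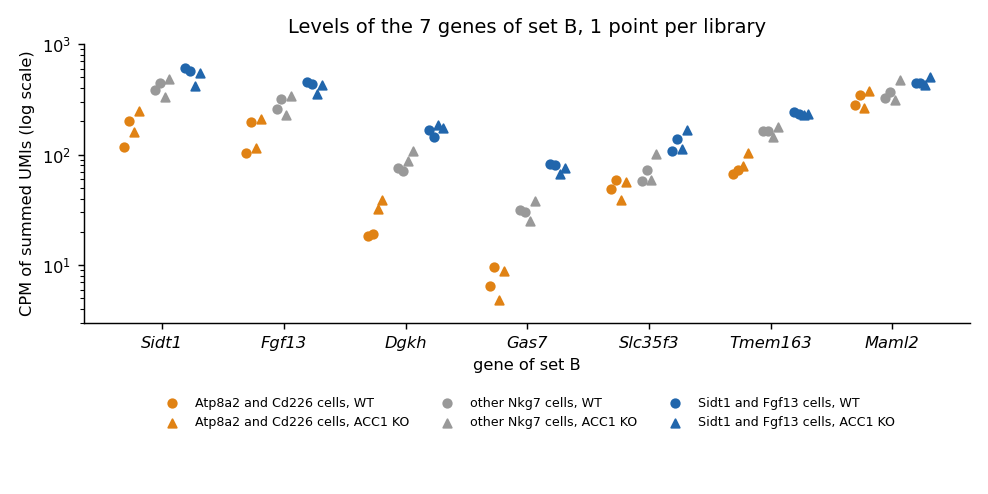
Level of the 7 set B genes (CPM, log axis) in Sidt1 and Fgf13 cells, intermediate cells and Atp8a2 and Cd226 cells, with circles for WT and triangles for ACC1 KO libraries. Gas7 and Dgkh have the widest gap between the outer groups and Maml2 the narrowest, and the gap was made by the rule.

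The promoter of Sidt1, the marker found in the largest share of members in 3 of the 4 libraries, is shown because it holds a match to the T-box site, the short element that T-bet and Eomes recognise. Promoters ran from 250 bases before to 50 bases after the start of each gene in RefSeq (GRCm38.p6), 6 of the 7 set B genes had an entry, and both strands were searched for GGTGTGA (T-box site) and TGTGGT (RUNX core). Sidt1 was the one set B gene with a match to either. The T-box letters occur in 3.98% of 32851 mouse promoters of this length. The match, in capitals, reads TCACACC at position -109 from the start (chr16:44332789-44333088, minus strand). It is a match of letters and no evidence of binding.
Sidt1: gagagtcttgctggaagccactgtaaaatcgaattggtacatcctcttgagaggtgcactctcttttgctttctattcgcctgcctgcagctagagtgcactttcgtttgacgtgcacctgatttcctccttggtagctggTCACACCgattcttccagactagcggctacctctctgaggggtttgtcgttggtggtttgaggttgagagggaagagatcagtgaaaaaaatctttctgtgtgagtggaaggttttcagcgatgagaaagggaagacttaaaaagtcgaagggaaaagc

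Members held RNA of iNKT1 cell genes in every library. Summed iNKT1 marker genes came to 7757.5, 7545, 7653 and 6291 CPM in members and 4834, 4643, 5006 and 4124 CPM in the mirrored cells. The sum takes in Nkg7, which the rule required in cells of both groups, so its presence was set by the rule. The gap in the sum was about that of Ccl5 alone, which held 3611, 3619.5, 3814 and 3017 CPM of it in members and 554, 827, 1205 and 1058 CPM in the mirrored cells. Tbx21 was at 145, 161, 106 and 165 CPM against 141, 154, 96.9 and 135 CPM, nearly level between the cell groups. Summed iNKT2 markers were at 387, 368, 353 and 348 CPM in members, under the 869, 733, 805 and 806 CPM of the mirrored cells. iNKT17 markers summed to 10.4 to 21.6 CPM in members, with the chemokine receptor gene Ccr6 at 0. T cell genes were present in every library of members, with Cd3e at 606, 690, 446 and 529 CPM. The NK cell list (Gzma, Klra8, Ncr1 and Eomes) summed to 533 to 1269.5 CPM, but nearly all of it was Gzma: the NK receptor gene Ncr1 was at 0.434 to 2.97 CPM and Eomes at 0 to 0.0693 CPM. B-lineage RNA was seen as Ighm at 79.1 to 95.6 CPM, with Cd79a at 0 by the rule.

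Against the Atp8a2 and Cd226 cells, members held more RNA of the effector proteins granzyme A and CCL5, of NK receptors and of S100a4, and less of Il4, of Izumo1r and of Themis. Outside the rule genes, 6 genes were at least 2-fold higher in members in each of the 4 libraries (0.0982% of 6112 genes at 20 CPM or more) and 8 were at least 2-fold lower (0.131%). Folds are on the scale of CPM with 20 added. Every gene of the cells takes part in such a grouping, so these are descriptions.

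Gzma, the serine protease of cytotoxic granules, was at 516, 921, 712 and 1246 CPM in members and at 47.9, 123, 135 and 219 CPM in the mirrored cells. Its mean was 849 ± 312 against 131 ± 70.1 CPM (SD, n = 4 libraries), a mean log2 difference of 2.59. A Gzma UMI was found in 27.7, 42.5, 46.7 and 60.3% of members, so most members of 3 libraries held none, and in 0.286, 0, 0.943 and 5.26% of B-lineage cells. Ccl5, a chemokine that draws T cells, was at 3611, 3619.5, 3814 and 3017 CPM against 554, 827, 1205 and 1058 CPM, and a UMI of it was found in 75.1 to 82.3% of members. Neither gene overlapped between the 2 cell groups.

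The promoters of Gzma and Fcer1g are shown as the genes higher in members with a RUNX core match, since RUNX3 is a known regulator of cytotoxic T cells. The letters TGTGGT, or ACCACA on the other strand, occur in 16.8% of all mouse promoters of this length. Klra7, S100a4 and Gm4208, also higher in members, had no match, and Ccl5 had no entry. A match of letters is no evidence of binding. In Gzma (chr13:113100932-113101231, minus strand) the capitals mark ACCACA at position -50. In Fcer1g (chr1:171234300-171234599, minus strand) they mark TGTGGT at position 9 after the start.
Gzma: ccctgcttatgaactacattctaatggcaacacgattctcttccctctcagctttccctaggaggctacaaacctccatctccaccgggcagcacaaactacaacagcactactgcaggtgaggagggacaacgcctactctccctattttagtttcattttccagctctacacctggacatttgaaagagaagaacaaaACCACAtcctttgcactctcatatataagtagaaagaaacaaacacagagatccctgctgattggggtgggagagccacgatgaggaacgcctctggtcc
Fcer1g: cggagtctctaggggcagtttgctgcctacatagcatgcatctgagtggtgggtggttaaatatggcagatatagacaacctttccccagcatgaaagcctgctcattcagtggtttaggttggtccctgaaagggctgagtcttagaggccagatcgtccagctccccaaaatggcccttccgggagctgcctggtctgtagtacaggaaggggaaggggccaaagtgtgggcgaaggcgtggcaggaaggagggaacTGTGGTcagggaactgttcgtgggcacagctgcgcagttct

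Fcer1g, the signalling adaptor of Fc and NK receptors, was at 463.5, 394, 431 and 250.0 CPM in members against 167, 129, 149 and 86.0 CPM (mean log2 difference 1.40). Klra7, an Ly49 receptor gene, was at 331.5, 245, 163 and 173 CPM against 60.9, 101, 66.7 and 57.0 CPM. S100a4, a calcium-binding protein gene of motile cells, was at 795, 876, 681 and 669.5 CPM against 233.5, 357, 322 and 309 CPM. The unnamed gene Gm4208 completed the 6, with a mean log2 difference of 2.05. At 1.5-fold in every library, a size chosen after the data were seen, 28 genes were higher and 28 lower (0.458% each). Among them Klf2, a transcription factor of quiescent and recirculating T cells, was at 765, 539.7, 798 and 551 CPM against 154, 218, 395 and 306 CPM.

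On the lower side, Il4, the iNKT2 cytokine, was at 17.5, 14.3, 19.4 and 21.4 CPM in members and at 98.9, 92.3, 89.4 and 86.8 CPM in the mirrored cells. Its mean was 18.2 ± 3.01 against 91.9 ± 5.20 CPM. Izumo1r, which encodes folate receptor 4, was at 22.3, 11.2, 14.8 and 9.76 CPM against 98.1, 64.2, 56.1 and 82.4 CPM. Themis, a T cell receptor signalling protein of developing thymocytes, was at 6.69, 10.8, 8.73 and 9.81 CPM against 62.6, 54.0, 60.1 and 41.6 CPM. All 3 genes were lower in members than in the mirrored cells of any library. Ramp1, a subunit of the receptor for the neuropeptide CGRP, Rora, an orphan nuclear receptor gene, Camk4, a calcium-dependent kinase gene, Plac8 and Gm4258 followed, with mean log2 differences of -1.35, -1.29, -1.14, -1.54 and -1.17. Zbtb16 was at 97.0, 102, 70.3 and 80.7 CPM against 187, 192, 164 and 217 CPM. Icos, a costimulatory receptor gene, was at 121, 114, 91.0 and 85.4 CPM against 263, 203, 200.1 and 163 CPM.

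**Figure D3:**
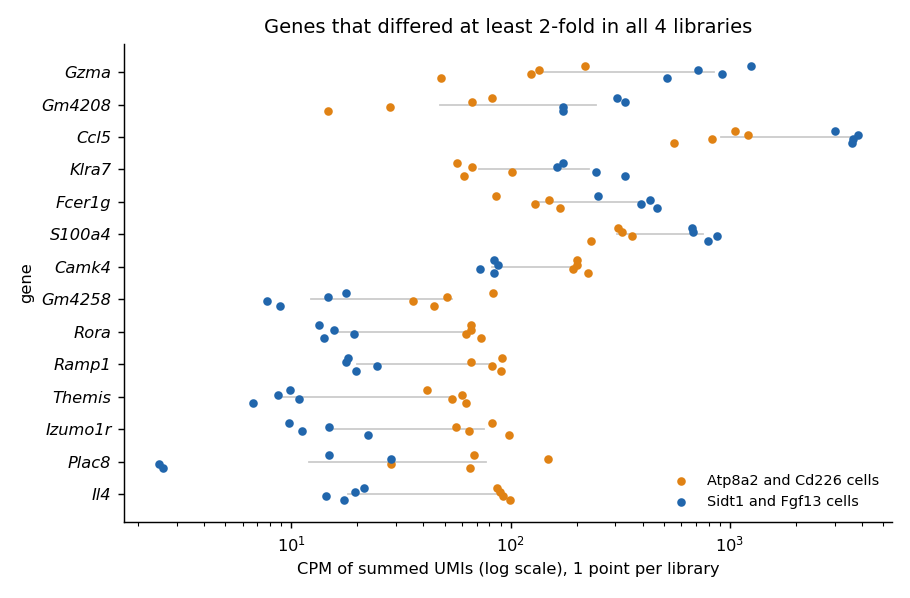
Level (CPM, log axis) of the 14 genes that differed at least 2-fold in every library between Sidt1 and Fgf13 cells and Atp8a2 and Cd226 cells, 4 libraries per group, with grey lines joining the group means. Gzma, Ccl5, Fcer1g, Klra7, S100a4 and Gm4208 lie higher in the Sidt1 and Fgf13 cells, and Il4, Izumo1r, Themis, Ramp1, Rora, Camk4, Plac8 and Gm4258 lie lower.

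By gene list, the NK and Ly49 receptors stood out by count: 17 of 19 measured genes were higher in members in all 4 libraries and 1, Cd160, was lower, with a median log2 difference of 0.48. Over all genes 13.4% were higher and 33.4% lower in all 4 libraries, with a median of -0.039. Klri2, at 122, 72.9, 91.3 and 50.8 CPM against 27.9, 29.6, 21.5 and 14.95 CPM, and Klra9 and Klra5, with mean log2 differences of 1.04 and 1.05, were examples. Ly49 genes are near-identical copies, so reads may be split among them in counting. A UMI of at least 1 of 11 Ly49 genes was found in 93.5, 95.3, 82.1 and 87.3% of members. It was found in 82.2, 89.4, 72.6 and 81.3% of intermediate cells, nearer to members than the 60.8, 71.1, 51.5 and 66.9% of the mirrored cells. B-lineage cells came to 1.14, 0, 3.77 and 0%.

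Of the iNKT2 list, 6 of 7 genes were lower and Gata3 was mixed, with a median of -0.97. Beside this and the other lists of this paragraph, 33.4% of all genes were lower and 13.4% higher in every library. MHC class I genes were lower in 13 of 13 cases, but by small amounts, with a median of -0.20. B2m, their shared light chain, was at 1389, 2027, 1352 and 1944.6 CPM in members against 1705.5, 2303, 1541 and 2120.2 CPM. The diacylglycerol and proximal T cell receptor list was mostly lower, with 12 of 20 genes lower and 3 higher. In it Rasgrp1, the diacylglycerol-binding activator of Ras, had a mean log2 difference of -0.76, and its relative Rasgrp2, an activator of Rap1, one of 0.67. Dgka and Dgkz, which encode the main diacylglycerol kinases of T cells, were mixed in direction. Of 11 Notch pathway genes outside the rule, 6 were lower and 1 was higher. Rbpj, the DNA-binding partner of Notch, was at 52.8, 43.5, 43.2 and 35.0 CPM against 101, 85.8, 75.5 and 60.3 CPM.

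Genes of movement went both ways, 9 of 16 higher and 7 lower. Itgae, which encodes the integrin CD103, was at 258, 346, 174 and 292 CPM against 146, 228, 80.9 and 168 CPM. S1pr1, the receptor that guides T cells out of the thymus, was at 44.6, 25.5, 34.1 and 31.2 CPM against 6.18, 6.73, 15.3 and 12.8 CPM. Cxcr6, which encodes an iNKT1 chemokine receptor, was lower in members, at 409, 396, 265 and 287 CPM against 558, 536, 382 and 329 CPM. Members thus differed from the mirrored cells in both directions within this list. The iNKT1 identity list was split, with 5 of 14 genes higher and 5 lower, and Ifng was at 83.6, 98.0, 92.3 and 159 CPM against 34.1, 63.5, 53.8 and 89.4 CPM. Of 12 cytotoxic genes 4 were higher and 3 lower, of 28 transcription factor genes 8 were higher and 14 lower, and of 20 type I interferon response genes 2 were higher and 11 lower. Beside these counts, 13.4% of all genes were higher and 33.4% lower in all 4 libraries. The count of lower cytotoxic genes is near that share, and no list was tested against it.

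Intermediate cells lay close to members. No gene differed 2-fold in every library (0% of 5973 in either direction), and at 1.5-fold Gzma alone did (0.0167%). Gzma was at 286, 535, 453 and 690.1 CPM in intermediate cells, 491 ± 169 CPM on average.

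Levels followed the difference between the counts of set B and set A genes in steps, for genes chosen after the contrasts above were seen. In WT 2, Gzma was at 24.6 CPM in cells with a difference of -5 or less, at 556 CPM at 0 and at 1052 CPM at 4. In ACC1 KO 2 it was at 2.93, 691 and 1418 CPM at the same steps. Il4 in WT 1 ran the other way, from 132 CPM at -5 or less to 32.6 CPM at 0 and 20.2 CPM at 4. Just outside the limit of the rule, at a difference of 1, Gzma was at 421, 658, 547 and 811 CPM, and just inside it, at 2, at 414, 858, 732 and 1068 CPM. It was thus higher just inside the limit in 3 of the 4 libraries. Tbx21 differed less between the steps of -5 or less and 4, at 131, 169.8, 105 and 127.5 CPM in the first and 129, 170.0, 109 and 169 CPM in the second. ACC1 KO 2 had the widest gap.

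**Figure D4:**
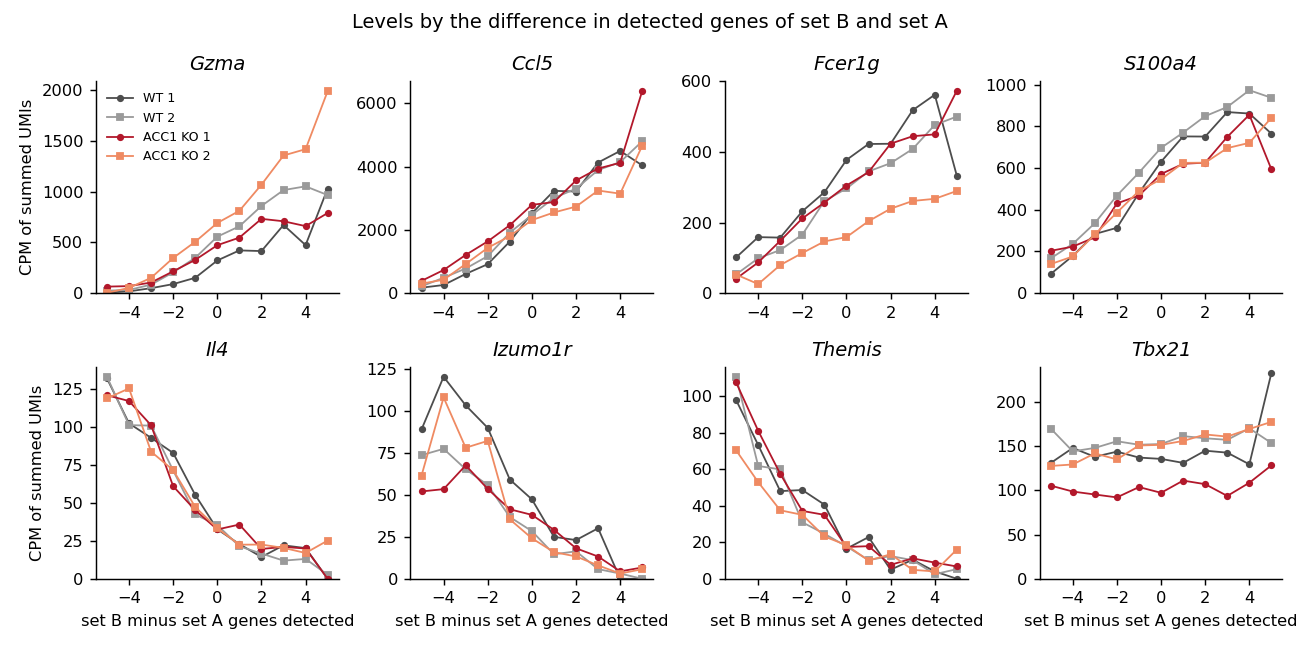
Level (CPM) of 8 genes in eligible cells by the number of set B genes minus the number of set A genes detected, 1 line per library, with -5 standing for -5 or less and 5 for 5 or more. Gzma, Ccl5, Fcer1g and S100a4 are higher at the last than at the first step in every library, Il4, Izumo1r and Themis are lower, and Tbx21 stays between 92.0 and 177 CPM apart from the last step of WT 1, which holds 11 cells.

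Genes most often detected in the same cells as set B at 2000 UMIs per cell were Plek and Rap1gap2 at a ratio of 1.30, Slc9a7 at 1.28, Snx9 and Klf12 at 1.25, Gm15614 at 1.24, Gm4208 at 1.23, and Yes1, Gzma and Plce1 at 1.22, averaged over the 4 libraries. The ratio is that of observed to predicted joint detection, taken over 5877 genes, and Ramp1 had the lowest at 0.791. Cells of 1 library share their depth, so no p is given. Rap1gap2 encodes an inactivator of the GTPase Rap1 and Snx9 an endocytic sorting nexin.

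The comparison of genotypes within members is open to a test, since the rule took no account of genotype. Eligible cells had a mean of 2.40, 3.22, 2.73 and 3.89 set B genes detected, higher in ACC1 KO within each number. In the tests here and below, a genotype difference in which cells the rule took cannot be told apart from a change within cells. Acaca, the targeted gene, was at 37.2, 29.6, 45.4 and 56.2 CPM (log2 fold change 0.73 ± 0.19 SE, 0.40 within number 1 and 0.99 within number 2, edgeR quasi-likelihood F test, adjusted p = 0.797). With the deleted stretch unknown, 3′ counts do not check the labels. Genes of fatty acid desaturation and their regulator were higher in ACC1 KO members. In all, 4 of 11802 genes rose past an adjusted p of 0.05 (0.0339%) and 0 fell (0%), while 352 had an unadjusted p under 0.05. DESeq2 called 33 higher (0.28%) and 5 lower (0.0424%). Leaving out WT 1 raised the edgeR count to 44, leaving out WT 2 to 25, ACC1 KO 1 to 10 and ACC1 KO 2 to 12.

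Scd1, a desaturase that puts the first double bond into saturated fatty acids, was at 0, 0.0693, 19.2 and 19.7 CPM, or 1 UMI in WT against 451 in ACC1 KO (edgeR adjusted p = 0.00285). The ratio of UMI shares was 335 with a counting interval of 59.9 to 13270. Its relative Scd2 was at 29.7, 20.4, 229 and 246 CPM (log2 fold change 3.38 ± 0.20, edgeR adjusted p = 0.00285), with 3.05 within number 1 and 3.65 within number 2. Srebf1, whose product SREBP-1 turns on fatty acid synthesis genes, was at 19.7, 15.9, 64.4 and 63.0 CPM (1.96 ± 0.17, 1.81 and 2.04 within numbers 1 and 2, edgeR adjusted p = 0.0274). Acsl3, which activates long-chain fatty acids with coenzyme A, was at 4.09, 4.85, 21.8 and 24.8 CPM (2.41 ± 0.24, 2.47 and 2.37 within numbers, edgeR adjusted p = 0.0429). All 4 genes were separated by genotype, with no overlap of libraries. Acsl3 no longer passed with a filter at 10 CPM or with sums thinned to the smallest total, where its adjusted p reached 0.0889.

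Of 20 tested fatty acid synthesis genes, those 4 passed the test, 15 had both ACC1 KO libraries above both WT libraries and 0 had both below. The median log2 fold change was 0.54, against 0.01 over all genes. Over all genes 14.2% lay above and 13.7% below in this way after TMM scaling, and 8.12% and 22.1% without it, where the list had 14 above and 1 below. Fasn, the fatty acid synthase, was at 22.7, 18.2, 55.2 and 40.7 CPM (edgeR adjusted p = 0.169). Fads2, a desaturase of polyunsaturated fatty acids, had 0 UMIs in WT and 96 in ACC1 KO. That is 23.8-fold higher against a floor of 3 counts over the group, and the counting interval starts at 19.0-fold.

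Cholesterol synthesis genes leaned the same way without passing the test: 20 of 25 had both ACC1 KO libraries above both WT libraries, 0 had both below, and the median was 0.72, with 0 called by edgeR and 6 by DESeq2. Cyp51, lanosterol demethylase, was at 11.5, 10.8, 31.2 and 27.1 CPM (log2 fold change 1.46 ± 0.18, 1.53 and 1.38 within numbers, edgeR adjusted p = 0.0984), and Fdps, farnesyl diphosphate synthase, at 13.8, 19.5, 48.9 and 58.3 CPM. Among 22 LXR target and lipid handling genes 1, Acsl3, passed, 9 had both ACC1 KO libraries above and 2 below. Abca1, a cholesterol exporter, was at 43.1, 28.004, 101 and 92.4 CPM (1.58 ± 0.20, 1.34 and 1.78 within numbers, edgeR adjusted p = 0.0984). Abcg1, another exporter, was at 115, 89.1, 194 and 219 CPM. Each of these genes was separated by genotype. Fatty acid oxidation genes did not lean that way, with 0 of 16 above, 4 below and a median of -0.02. Beside these counts, 14.2% of all genes lay above and 13.7% below with TMM scaling, and 8.12% and 22.1% without it.

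Outside lipid genes no change within members passed in the reported edgeR fit, which has no term for the replicate number. DESeq2 did call some, among them Itga4 (DESeq2 adjusted p = 2.18e-08), Plac8 (6.74e-08), Ptpn5 (0.000447) and Cdh1 (0.00253). With the replicate number as a block, edgeR called Itga4, Plac8, Ptpn5 and Cdh1 as well (edgeR adjusted p from 2.1e-51 for Itga4 to 2.8e-23 for Cdh1). The labels do not say what a number shares. The largest shift downward among genes at 20 CPM or more was that of Itga4, the alpha 4 integrin subunit, at 41.6, 38.3, 10.0 and 5.96 CPM (-2.31 ± 0.25, -1.92 and -2.57 within numbers, edgeR adjusted p = 0.067). Cdh1, E-cadherin, was at 87.3, 71.7, 23.4 and 36.5 CPM (-1.27 ± 0.24, -1.78 and -0.90 within numbers, edgeR adjusted p = 0.302). Both genes were at lower levels in both ACC1 KO libraries than in either WT library. Cd244a, an NK receptor of the SLAM family, was at 26.4, 23.3, 9.39 and 9.27 CPM (edgeR adjusted p = 0.13). Of 23 NK and Ly49 receptor genes 0 had both ACC1 KO libraries above and 9 had both below, with a median of -0.21, where 13.7% of all genes lay below with TMM scaling and 22.1% without it. Klra7 was at -0.68 ± 0.18 (-0.91 and -0.43 within numbers 1 and 2, edgeR adjusted p = 0.797). Hk2, the hexokinase that starts glycolysis, was at 4.83, 5.06, 14.8 and 20.4 CPM (1.92 ± 0.27, 1.69 and 2.04 within numbers, edgeR adjusted p = 0.127), and of 20 glycolysis genes 6 had both ACC1 KO libraries above, where 14.2% of all genes did, and 1 below. Gzmb, granzyme B, was at 285, 311, 633 and 562 CPM (1.09 ± 0.18, 1.26 and 0.92 within numbers, edgeR adjusted p = 0.232). Cd4 was at 4.09, 7.49, 27.5 and 26.0 CPM (2.12 ± 0.28, 2.80 and 1.84 within numbers, edgeR adjusted p = 0.0984), and in members of every library it was below the 26.8, 32.4, 59.9 and 54.1 CPM of the mirrored cells of that library.

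Survival genes, the subject named in the title of the series, showed no call in members. Bcl2, which blocks mitochondrial cell death, was at 641, 455, 1018 and 642 CPM (0.69 ± 0.26, 0.78 and 0.57 within numbers, edgeR adjusted p = 0.9998), higher in ACC1 KO within each number. Pmaip1, which encodes the death-promoting protein NOXA, was at 2.23, 3.12, 7.42 and 8.40 CPM (edgeR adjusted p = 0.395). Of 17 pro-apoptotic genes 2 had both ACC1 KO libraries above and 1 below, of 13 anti-apoptotic genes 4 and 0, of 16 p53 targets 5 and 0, and of 15 integrated stress response genes 6 and 0. Over all genes the shares were 14.2% above and 13.7% below, and no gene of these lists was called.

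**Figure D5:**
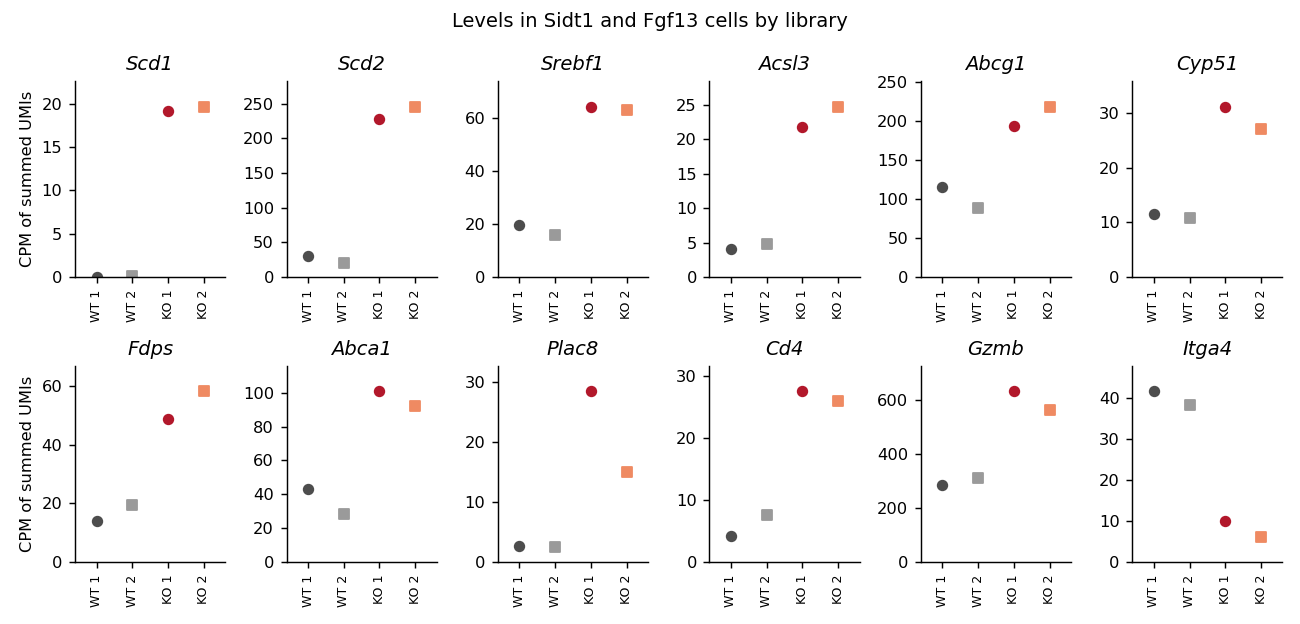
Level (CPM, linear axis from 0) of 12 genes in Sidt1 and Fgf13 cells of each library, with circles for number 1 and squares for number 2. Scd1, Scd2 and Srebf1 have both ACC1 KO libraries above both WT libraries and passed the edgeR test, as did Acsl3. Abcg1, Cyp51, Fdps, Abca1, Plac8, Cd4, Gzmb and Itga4 were separated by genotype without passing it.

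Whether the genotype effect differs between cell groups was tested on sums of both groups with the library as a term. Against Atp8a2 and Cd226 cells, 10 genes had a more positive genotype effect in members (0.0812% of 12312 genes) and 22 a more negative one (0.179%). These counts include Setbp1, Dgkh and Atp8a2, whose detection was used by the rule and which are not read as results. DESeq2 called 1 gene in all, as did the fit on cells thinned to 2000 UMIs, and without WT 2 the edgeR count was 127.

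Ly6c2, a surface marker of mature T cells, was the gene that passed in both tools. It was at 1415, 1250.0, 1280 and 1326.5 CPM in members, where both genotypes lay close together (log2 fold change 0.06), and at 593, 647, 980 and 982 CPM in the mirrored cells, where it was higher in ACC1 KO (0.75). The difference of the effects was -0.68 ± 0.07 (edgeR adjusted p = 1.8e-06, DESeq2 adjusted p = 3.5e-10), and it was lost with Fgf13 left out of set B. Scd2 had a larger effect in members than in the mirrored cells, 3.38 against 2.68 on the log2 scale, a difference of 0.68 ± 0.11 (edgeR adjusted p = 0.000236) that was not called by DESeq2, with thinned cells or without Fgf13. In the mirrored cells Scd2 was at 38.6, 27.6, 198 and 199 CPM. Against intermediate cells 1 gene of 12835 passed, with a more negative effect in members (0.00779%): Apoe, an apolipoprotein gene at a mean of 3.06 CPM, with a difference of -2.71 ± 0.47 (edgeR adjusted p = 0.0154). It rested on intermediate cells of ACC1 KO 2, at 6.98 CPM against 0.979, 0.713 and 1.18 CPM in those of WT 1, WT 2 and ACC1 KO 1, and was lost without WT 2 or without ACC1 KO 2. DESeq2 called 0 there, and 641 genes had an unadjusted p under 0.05 in edgeR. Without WT 1, WT 2, ACC1 KO 1 or ACC1 KO 2 the edgeR count was 21, 5, 15 or 11.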

How the data were processed

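Thymic iNKT cells were profiled in 2 WT and 2 ACC1 KO libraries built with a 10x Genomics Chromium 3′ kit (v3.1), according to the labels. The authors deposited raw UMI counts of 32285 genes in each barcode. They were made by Cell Ranger 7.0.0 with mm10, per the submitters' processing notes. Barcodes under 1000 UMIs, under 500 genes or at 10% mitochondrial UMIs or more were dropped (42, 33, 146 and 67 of them). The Cd79a and Rag1 condition then removed 1257 cells, Nkg7 2369 and the cycling genes 424. Doublets were kept, since the rule has no such step. Scored against 2 simulated doublets per cell at 0.8% per 1000 cells, they came to 4.36, 9.46, 5.53 and 7.01% of members. That setting fixed the share marked in each library, at 4.36, 7.91, 5.02 and 6.83% of cells past the quality filters. In the mirrored cells the marked share was lower than in members, at 4.27, 5.40, 4.09 and 4.34%.

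UMIs were summed per library and cell group (2.69, 14.4, 4.58 and 18.4 M in members). Genotypes and interactions were tested with edgeR 4.0.16 (quasi-likelihood F test, robust, TMM, filterByExpr) in R 4.3.3, adjusted by Benjamini-Hochberg over all genes tested. DESeq2 1.42.0, other filters, rules and depths, doublet removal and leaving out libraries were alternatives. CPM are UMI sums over the group's total. B-lineage cells had 2 or more Cd79a UMIs, 1 or more of Cd79b and none of Cd3e or Trac. The tests were also run on simulated data.

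Members, gene lists and tests were chosen with earlier results of these data known. Named genes are the rule genes, Acaca, up to 15 per direction with a 2-fold difference in every library, called genes at 20 CPM or more, or the 8 with the smallest p where under 5 passed, up to 5 per direction for interactions, up to 6 per list by p and by level, and 10 by co-detection. Klf2, Zbtb16 and Icos were named from the lists, and Apoe was named after its value was seen. A few genes picked by it are not reported here.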

Additional observations from a re-analysis of the deposited data

Results flagged for a closer look

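Genotype effects differed between Sidt1 and Fgf13 cells and Atp8a2 and Cd226 cells in the test of that difference. The 10 genes given here are the 5 per direction with the largest differences at 20 CPM or more outside the rule, and all values are differences of log2 fold changes by edgeR. Plac8 had the most positive difference, 1.52 ± 0.23 (adjusted p = 8.43e-05), at 2.60, 2.50, 28.4 and 14.9 CPM in members and 65.5, 28.5, 147 and 67.7 CPM in the mirrored cells. Cd4 followed at 1.11 ± 0.18 (adjusted p = 0.000157), with log2 fold changes of 2.12 and 1.02. The values of Itgb3, Scd2 and Ptpn5 were 0.86, 0.68 and 0.65. The fitted effect of genotype was larger in members for these 5 genes, and all 5 had lower levels in members than in the mirrored cells in each WT library.

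Id3, an inhibitor of E proteins, was at 25.6, 29.3, 10.3 and 17.2 CPM in members and 17.0, 23.1, 17.3 and 28.2 CPM in the mirrored cells, a difference of -1.14 ± 0.17 (edgeR adjusted p = 8.11e-05). S1pr1 was at -1.05 ± 0.21 (edgeR adjusted p = 0.0128), with log2 fold changes of 0.04 in members and 1.19 in the mirrored cells. Rap1gap2, Ly6c2 and Ass1 had differences of -1.05, -0.68 and -0.63. Of the 10 genes, Ly6c2 was the one still called by DESeq2 and with cells thinned to 2000 UMIs. With Fgf13 left out of set B, all of the 10 but Id3 were lost, Ly6c2 included. The stricter rule lost Plac8, Itgb3, Ptpn5, Id3, S1pr1 and Ass1. Removing doublets lost Ptpn5. Rap1gap2 was lost without ACC1 KO replicate 2, S1pr1 without WT replicate 1, Itgb3 and Ptpn5 without WT replicate 2 or ACC1 KO replicate 2, and Ass1 without each of the 4 libraries in turn.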

How the results depend on the processing

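The difference in share kept its direction in every alternative run, from 3.79 points with the stricter rule to 8.32 with doublets removed, and from 1.10 to 15.1 with a library left out. The exact test could not pass in any. Genes called between genotypes in members, 4 in the reported fit, came to 38 with the DESeq2 Wald test, 105 with no filter, 2 at 10 CPM, 7 with doublets removed, 12 with thinned cells, 9 without Fgf13 and 10 to 44 with a library left out (44 without WT 1, 25 without WT 2, 10 without ACC1 KO 1, 12 without ACC1 KO 2). Scd1, Scd2 and Srebf1 were called in each alternative that gave them a value. The effect difference against Atp8a2 and Cd226 cells, 32 calls, came to 1 with DESeq2, 49 with no filter, 1 with thinned cells, 10 with the stricter rule, 1 without Fgf13 and 27 to 127 with a library left out (127 without WT 2). Against intermediate cells, 1 call, it came to 0 with DESeq2, 17 with no filter, 0 at 10 CPM, 5 with doublets removed, 0 with thinned cells, 6 with the stricter rule, 2 without Fgf13 and 5 to 21 with a library left out. The cause was not tested. The 14 genes at 2-fold against Atp8a2 and Cd226 cells came to 8 with thinned cells, 24 with the stricter rule, 8 without Fgf13, 29 with 5 CPM added, 14 to 17 with a library left out and 56 at 1.5-fold, a size added after the data were seen, which gave 1 against intermediate cells. The values that reversed were 2, both for effect differences against Atp8a2 and Cd226 cells: Ptpn5 to -0.00334 with thinned cells and Chl1, at -3.88 in the reported fit, to 0.24 without WT replicate 2 (range with a library left out -6.60 to 0.24).

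With the replicate number as a block, calls were 493 between genotypes in members, 87 and 58 for the effect differences, and the share differed by 8.11 points. Deviations of same-numbered libraries correlated at r = 0.56 over 11802 genes, but 2 pairs and labels that do not say what a number shares do not make the design paired.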

Other observations

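Use of T cell receptor beta variable genes in members was read from few UMIs. Trbv13-2, the V beta 8.2 gene common in mouse iNKT receptors, took 28.8, 26.0, 28.7 and 25.9% of 66, 334, 157 and 414 Trbv UMIs. The 4 libraries lay close together. Traj18, the joining segment of the semi-invariant alpha chain, was at 17.1, 15.4, 6.77 and 15.3 CPM, lowest in ACC1 KO 1.

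Type I interferon response genes had both ACC1 KO libraries above both WT libraries in 14 of 24 cases and below in 0, with a median log2 fold change of 0.34 and no call. Ifit1, which binds viral RNA, was at 29.0, 33.8, 52.2 and 47.3 CPM (edgeR adjusted p = 0.731). Isg15 followed the number rather than the genotype, at 4.46, 70.8, 12.4 and 83.2 CPM. Cycling genes leaned the same way although the rule limits them, with 8 of 16 S phase and 6 of 11 G2 and M phase genes above and 0 below. Mitochondrially encoded genes had 0 of 13 above and 2 below, with a median of -0.32. Over all genes the shares were 14.2% above and 13.7% below with TMM scaling, so the mitochondrial count is near the background, and 8.12% and 22.1% without it.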
